A study of Mus musculus with 70 samples.

Results

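The transcription factors that set up the hormone cell lineages of the pituitary were described as 8 genes, Pou1f1, Pitx1, Lhx3, Lhx4, Gata2, Isl1, Foxl2 and Six6, out of 22835 genes in the table of pituitary RNA. They were picked by gene symbol, and each gene was read by its transcript with the highest mean CPM, that is, reads scaled to the mapped reads of the library. The anterior pituitary forms from Rathke's pouch, where homeodomain factors establish the organ, and later factors divide it into cells that make growth hormone, prolactin, thyrotropin, the gonadotropins or adrenocorticotropin. Many of these factors stay on in the adult gland and act on the promoters of the hormone genes. Thyroid hormone (T3) acts on the adult gland through its nuclear receptors, of which TRβ, encoded by Thrb, is known for the feedback that lowers thyrotropin.

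The RNA libraries came from male C57BL/6J mice of 2 to 4 months, either wild type or Thrb-deficient (Thrb-KO), and each library pooled 3 pituitaries. Every mouse drank water with 0.05% methimazole (MMI), which blocks hormone synthesis, and 1% KClO4 for 4 or 5 weeks, and these animals without added hormone are called hypothyroid. The hyperthyroid groups also received 0.5 μg/ml T3 in the water for the last 1 week. Of the 70 samples in the series, 4 libraries were wild type hypothyroid, 4 wild type hyperthyroid, 5 Thrb-KO hypothyroid and 5 Thrb-KO hyperthyroid. The reads per library ranged from 21453548 to 55273749. TRβ binding was listed in pituitary and cerebral cortex of untreated, euthyroid mice (Thrb HAB/HAB;Rosa26BirA/BirA, with BirA mice as the control). Chromatin that opened or closed with T3 was listed in tagged pituitary nuclei of Rosa26Sun1-GFP; Thrb2-Cre mice that were hypothyroid or hyperthyroid by the treatment above. These mice were also male and of 2 to 4 months. The authors give them mixed strain backgrounds that include C57BL/6J, unlike the mice of the RNA libraries. The lists are described with the loci.

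Thrb, the targeted gene, was read first as a check of the labels. It stood at 239, 242, 249 and 297 CPM in the hypothyroid and at 124, 117, 72.4 and 103 CPM in the hyperthyroid wild-type libraries. In the Thrb-KO libraries it stood at 272, 295, 278, 271 and 239 CPM without T3 and at 288, 301, 239, 245 and 228 CPM with T3. Libraries labelled Thrb-KO thus held no less Thrb RNA than the others, and since a count over the whole transcript cannot show whether the disrupted part is missing, it does not check those labels. The groups differed in another way, since Thrb RNA fell by 1.32 on the log2 scale with T3 in wild type (limma, BH-adjusted p = 1.27e-06) and showed a change of -0.06 in Thrb-KO (adjusted p = 1.0). The difference between these responses was 1.26 (adjusted p = 0.000322).

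The 18 libraries formed 2 sets that cut across all 4 groups. Replicates 1 and 2 of each group held between 2571 and 3419.5 CPM of Lars2, a mitochondrial tRNA synthetase, and replicates 3 to 5 held between 53.2 and 95.1 CPM. The labels name a pair of library kits without saying which library used which. Values within each set are therefore given beside the pooled ones for each difference of a lineage factor with an adjusted p under 0.05, and both sets hold at least 2 libraries of every group.

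Of the 8 factors, 7 were above 1 CPM in all 18 libraries and entered the test, and Lhx4 was not. Between genes, levels are compared per kilobase of the longest annotated transcript, an approximation because the table gives no lengths. On that scale Pou1f1 led in the hypothyroid wild-type libraries with a mean level of 69.8 CPM per kb, followed by Pitx1 with 52.0, Lhx3 with 31.2, Gata2 with 24.1, Six6 with 23.1, Foxl2 with 8.78, Isl1 with 7.88 and Lhx4 with 0.419. The libraries of Pou1f1 and Pitx1 overlapped on that scale, and so did those of Gata2 and Six6 and those of Foxl2 and Isl1. Pou1f1 and the factors of all endocrine lineages, Pitx1 and Lhx3, were thus the most abundant, and Lhx4 was near the limit of the test in every group.

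The first comparison asks how the adult gland's lineage factors respond to T3 when TRβ is present. In wild type, Six6 and Lhx3 rose and Gata2 and Isl1 fell, so that 4 of the 7 factors tested passed adjusted p under 0.05 and 1.5-fold in the limma fit, where 9.46% of 13145 genes tested did. The 2 that rose stand against 3.87% of all genes and the 2 that fell against 5.59%, and at any fold 5 of the 7 had an adjusted p under 0.05, as did 19.3%. The 4 members were also those whose groups did not overlap, as was true of 17.4% of all genes tested. In these bulk pools, fewer cells of a type and less RNA per cell cannot be told apart, and the p-values measure the spread among pools of pituitaries.

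Among the factors of the early pouch, Six6, a homeodomain protein that supports growth of the pituitary primordium, rose with T3. It stood at 96.6, 96.1, 84.0 and 89.0 CPM in the hypothyroid and at 158, 182, 147 and 168 CPM in the hyperthyroid wild-type libraries. Every hyperthyroid library was above every hypothyroid one. The rise was 0.83 ± 0.09 on the log2 scale (SE, n = 4 and 4, a fold of 1.78, limma adjusted p = 1.04e-06), with 0.81 in replicates 1 and 2 and 0.86 in replicates 3 and 4. Six6 overlaps 4930447C04Rik on the other strand, and since the strand of counting is not stated their reads cannot be told apart where they overlap. That neighbour had mean levels of 23.2 ± 3.07 CPM and 30.6 ± 9.05 CPM (SD) in the same groups and did not pass the test (log2 0.35, adjusted p = 0.151).

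Lhx3, the LIM-homeodomain factor that carries the pouch into all anterior lineages, stood at 65.8, 61.8, 81.5 and 68.6 CPM in the hypothyroid and at 109, 93.3, 89.3 and 135 CPM in the hyperthyroid libraries. The groups did not overlap, but the nearest libraries were close, at 81.5 and 89.3 CPM. The rise of 0.60 ± 0.15 (adjusted p = 0.006) lay just past the 1.5-fold limit. It dropped below that limit without hypothyroid replicate 1 (0.58) or 2 (0.55) and without hyperthyroid replicate 1 (0.58) or 4 (0.48). Within sets it was 0.66 in replicates 1 and 2 and 0.55 in replicates 3 and 4, where it missed the test (adjusted p = 0.0921).

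Isl1, a LIM-homeodomain factor of the pouch that is later kept in thyrotrophs and gonadotrophs, stood at 18.0, 16.4, 23.1 and 22.1 CPM in the hypothyroid and at 9.56, 11.3, 10.6 and 14.4 CPM in the hyperthyroid libraries. The highest hyperthyroid library was below the lowest hypothyroid one. Isl1 fell by 0.75 ± 0.13 (a fold of 0.595, limma adjusted p = 0.000332), with -0.67 in replicates 1 and 2 and -0.82 in replicates 3 and 4. Pitx1, the paired-type homeodomain factor found across the endocrine lineages, ranged from 116 to 145 CPM and from 107 to 149 CPM in these groups. Its difference was -0.01 ± 0.11 (adjusted p = 0.982), and the sign turned with other scalings of the libraries (0.05 with TMM, 0.06 with edgeR and with DESeq2) and between the sets (-0.11 in replicates 1 and 2 and 0.09 in replicates 3 and 4). Lhx4, the close relative of Lhx3 that acts early in the pouch, ranged from 0.471 to 1.14 CPM and from 0.446 to 1.18 CPM, and its difference of 0.03 was read from the fit over 14472 genes that passed 1 CPM in at least 4 libraries.

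Among the later factors, Gata2, a zinc-finger protein that acts with Pou1f1 on the thyrotropin beta gene and also works in gonadotrophs, stood at 82.9, 74.7, 80.1 and 74.4 CPM in the hypothyroid and at 54.0, 42.2, 44.6 and 59.5 CPM in the hyperthyroid libraries. No library of one group reached the range of the other. Gata2 fell by 0.64 ± 0.10 (a fold of 0.641, limma adjusted p = 7.79e-05), with -0.71 in replicates 1 and 2 and -0.58 in replicates 3 and 4, the latter under the fold limit (adjusted p = 0.0128). It was under that limit as well without hyperthyroid replicate 2 (-0.57) and with edgeR (-0.58) and DESeq2 (-0.57). Foxl2, a forkhead factor of gonadotrophs and thyrotrophs, stood at 25.9, 20.1, 24.1 and 18.4 CPM in the hypothyroid and at 17.5, 14.8, 12.6 and 19.2 CPM in the hyperthyroid libraries, and these ranges overlapped. Its difference of -0.45 ± 0.13 had an adjusted p of 0.0174 and was smaller than 1.5-fold. It was -0.48 in replicates 1 and 2 (adjusted p = 0.00777) and -0.41 in replicates 3 and 4, where it did not pass (adjusted p = 0.162). It did not pass either without hypothyroid replicate 1 (adjusted p = 0.069) or 3 (0.0569) or in a fit of these 2 groups alone (0.125).

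Pou1f1, the POU factor required for somatotrophs, lactotrophs and thyrotrophs, stood at 88.3, 121, 151 and 135 CPM in the hypothyroid and at 109, 125, 96.1 and 135 CPM in the hyperthyroid wild-type libraries. The groups overlapped across most of their range. The difference was -0.07 ± 0.18 (adjusted p = 0.86), and it was 0.17 in replicates 1 and 2 and -0.32 in replicates 3 and 4, of opposite sign. Over the 7 factors tested the median absolute log2 difference was 0.60, against 0.16 for all genes tested.

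**Figure D1:**
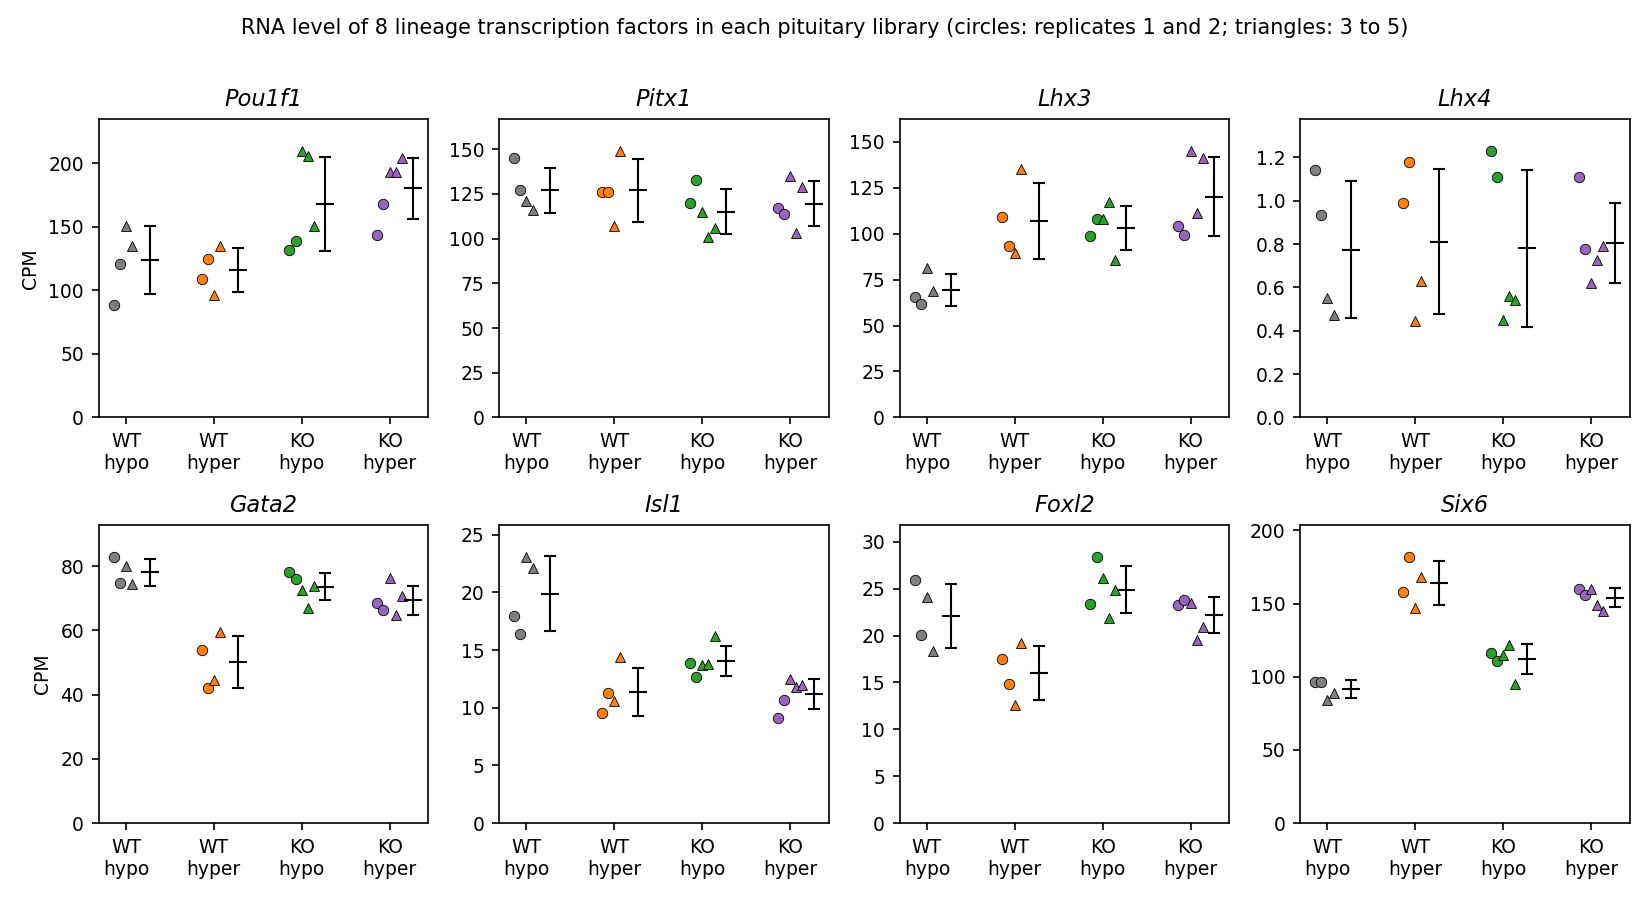
RNA level in CPM of the 8 lineage factors in each library of the 4 groups, with wild type (WT) and Thrb-KO (KO) under hypothyroid and hyperthyroid treatment. Circles are replicates 1 and 2, triangles replicates 3 to 5, and the bars give mean and SD. Six6 shows the hyperthyroid groups above the hypothyroid ones in both genotypes, while Gata2 drops in hyperthyroid wild type, to between 42.2 and 59.5 CPM.

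The second comparison asks what T3 does to the same genes in mice labelled Thrb-KO. None of the 7 factors tested passed both limits in the limma fit, where 1.01% of all genes did. At an unadjusted p under 0.05 there were 2, Six6 and Isl1, and edgeR and DESeq2 each called 0. At any fold, Six6 was the 1 factor with an adjusted p under 0.05, as were 1.79% of all genes. These 2 genes, Six6 and Isl1, were also the members whose groups did not overlap, against 5.58% of all genes tested.

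Six6 stood at 116, 111, 115, 122 and 95.0 CPM in the hypothyroid and at 159.7, 156, 160.2, 149 and 145 CPM in the hyperthyroid Thrb-KO libraries. All 5 hyperthyroid libraries were above all 5 hypothyroid ones. The difference was 0.46 ± 0.08 (SE, n = 5 and 5, a fold of 1.38, limma adjusted p = 0.00153), under the 1.5-fold limit, with 0.47 in replicates 1 and 2 (adjusted p = 0.00112) and 0.46 in replicates 3 to 5 (adjusted p = 0.0549). Isl1 stood at 13.9, 12.7, 13.7, 13.8 and 16.2 CPM without T3 and at 9.16, 10.7, 12.5, 11.8 and 12.0 CPM with it. The groups were next to each other, at 12.7 and 12.5 CPM, and the difference of -0.31 ± 0.12 did not pass (limma adjusted p = 0.329).

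Gata2 in Thrb-KO stood at 78.2, 75.9, 72.7, 67.0 and 73.8 CPM without T3 and at 68.5, 66.2, 76.4, 64.8 and 70.8 CPM with T3. These ranges overlapped, and both lay above every hyperthyroid wild-type library. Lhx3 stood at 98.9, 108, 108, 117 and 85.4 CPM without T3 and at 104, 99.3, 145, 111 and 141 CPM with T3, again with overlap. The T3 differences were -0.08 ± 0.09 for Gata2 and 0.21 ± 0.13 for Lhx3 (-0.02 in replicates 1 and 2 and 0.36 in replicates 3 to 5), and those of Pou1f1, Pitx1, Lhx4 and Foxl2 lay between -0.16 and 0.12. Over the 7 factors tested the median absolute log2 difference was 0.16, against 0.07 for all genes tested.

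Whether a response differs between genotypes is asked by the interaction, the T3 response in Thrb-KO minus that in wild type. None of the 7 factors passed both limits by limma, where 4.26% of all genes did, 3 had an unadjusted p under 0.05 (Gata2, Six6 and Isl1), and edgeR and DESeq2 each called 0. Gata2 was the 1 factor with an adjusted p under 0.05 at any fold, as were 5.46% of all genes. Its interaction was 0.56 ± 0.13 (limma adjusted p = 0.0138), a fold of 1.47 that stayed under the 1.5-fold limit, and it passed that limit without wild-type hyperthyroid replicate 1 (0.60) or 4 (0.64). The value was 0.52 in replicates 1 and 2 (adjusted p = 0.0268) and 0.56 in replicates 3 to 5, where it did not pass (adjusted p = 0.116).

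For the other genes that responded in wild type, the interaction did not pass after adjustment. It was -0.37 ± 0.12 for Six6 (limma adjusted p = 0.0773, -0.33 and -0.40 in the 2 sets), 0.44 ± 0.17 for Isl1 (adjusted p = 0.197, 0.28 and 0.57) and -0.40 ± 0.20 for Lhx3 (adjusted p = 0.368). A different response of these 3 genes in Thrb-KO was therefore not shown. For Lhx3 the library sets gave unlike values, -0.68 in replicates 1 and 2 (adjusted p = 0.00142) and -0.19 in replicates 3 to 5 (adjusted p = 0.787).

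**Figure D2:**
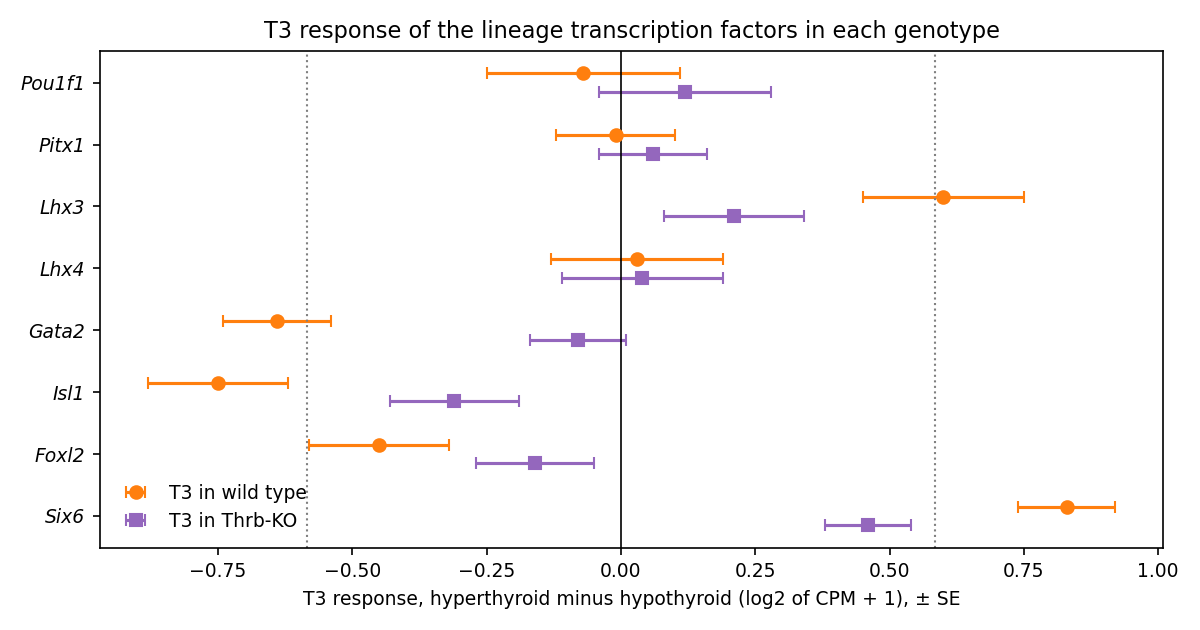
T3 response of each lineage factor as the log2 difference of hyperthyroid minus hypothyroid libraries, with SE, in wild type (circles) and Thrb-KO (squares). Dotted lines mark a fold of 1.5 in either direction. The 4 wild-type values past them run from -0.75 for Isl1 to 0.83 for Six6, and no Thrb-KO value lies past them.

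The genotypes were then compared within each hormone state, and these comparisons share their libraries with the T3 comparisons above. Between hypothyroid Thrb-KO and wild type, 0 of 7 factors passed both limits by limma, where 3.02% of all genes did. The unadjusted p was under 0.05 for 4 of them, and edgeR and DESeq2 each called 0. At any fold, 3 factors had an adjusted p under 0.05, as did 6.85% of all genes.

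Lhx3 was higher in every hypothyroid Thrb-KO library than in any hypothyroid wild-type one, from 85.4 CPM upward against at most 81.5 CPM. The difference was 0.57 ± 0.14 (a fold of 1.48, limma adjusted p = 0.0166), 0.69 in replicates 1 and 2 (adjusted p = 7.59e-05) and 0.45 in replicates 3 to 5 (adjusted p = 0.159). It passed the fold limit without wild-type hypothyroid replicate 3 (0.65) or Thrb-KO hypothyroid replicate 5 (0.63), and its adjusted p rose above 0.05 without wild-type hypothyroid replicate 1 (0.0503) or 2 (0.0551) or Thrb-KO hypothyroid replicate 4 (0.0505). Isl1 was lower in Thrb-KO, with no library above 16.2 CPM and none of wild type below 16.4 CPM. That difference was -0.46 ± 0.12 (adjusted p = 0.0287), with -0.35 in replicates 1 and 2 (adjusted p = 0.0644) and -0.60 in replicates 3 to 5 (adjusted p = 0.0188), and it did not pass without wild-type hypothyroid replicate 3 or 4 or any of Thrb-KO hypothyroid replicates 1 to 4 (adjusted p from 0.0566 to 0.114). Lhx3 and Isl1 were the 2 members whose groups did not overlap, against 14.3% of all genes tested. For Six6 the difference was 0.28 ± 0.08 (adjusted p = 0.0426), with overlap between 95.0 and 96.6 CPM. It passed in neither set, with 0.23 in replicates 1 and 2 (adjusted p = 0.0559) and 0.34 in replicates 3 to 5 (adjusted p = 0.0934), nor in most runs that left out 1 library (adjusted p up to 0.148).

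Between hyperthyroid Thrb-KO and wild type, Pou1f1 was the 1 factor of 7 that passed both limits, where 4.86% of all genes did and 2.54% did so upward. At any fold 3 factors had an adjusted p under 0.05, as did 12.1% of all genes. Pou1f1 stood at 144, 168, 193, 193 and 204 CPM in hyperthyroid Thrb-KO, above all 4 hyperthyroid wild-type libraries, which ended at 135 CPM. The rise was 0.63 ± 0.17 (a fold of 1.55, limma adjusted p = 0.0176), with 0.41 in replicates 1 and 2 (adjusted p = 0.0279), under the fold limit, and 0.78 in replicates 3 to 5 (adjusted p = 0.00796). The call was lost without wild-type hyperthyroid replicate 3 (0.54), the library with the lowest Pou1f1, and without Thrb-KO hyperthyroid replicate 5 (0.58), the one with the highest. It was lost as well when libraries were rescaled by TMM (0.56) and with edgeR (0.56) and DESeq2 (0.55). In the hypothyroid groups Pou1f1 stood at 132, 139, 209.8, 206 and 151 CPM in Thrb-KO, and the difference there was 0.43 ± 0.17 (adjusted p = 0.156), with overlap.

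Gata2 and Foxl2 were also higher in hyperthyroid Thrb-KO than in hyperthyroid wild type, by less than 1.5-fold. The difference was 0.47 ± 0.09 for Gata2 (limma adjusted p = 0.00169) and 0.46 ± 0.12 for Foxl2 (adjusted p = 0.0157), which stood at 23.3, 23.8, 23.5, 19.5 and 20.9 CPM in hyperthyroid Thrb-KO. In replicates 1 and 2 they were 0.49 and 0.53 (adjusted p = 0.00262 and 0.00759) and in replicates 3 to 5 they were 0.45 and 0.42 (adjusted p = 0.033 and 0.0946), so Foxl2 did not pass in the latter, nor without wild-type hyperthyroid replicate 3 (adjusted p = 0.0509) or in a fit of these 2 groups alone (0.0649). Both genes had no overlap between these groups, so 3 members were separate with Pou1f1, against 11.3% of all genes tested. For Pitx1, Lhx3, Lhx4, Isl1 and Six6 the differences lay between -0.08 and 0.17.

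The same fit was read for genes that work beside the 8 factors. Of 22 other pituitary transcription factors, 18 were tested. With T3 in wild type, 3 rose and 0 fell, namely Neurod4 (1.48, limma adjusted p = 3.31e-06), Esr1 (0.95, adjusted p = 0.0305) and Gli2 (0.68, adjusted p = 0.0186), of which Esr1 and Gli2 had overlapping groups. edgeR and DESeq2 each called these 3 and also Lhx2 and Six3. In Thrb-KO 0 of the 18 were called by limma, 3 had an unadjusted p under 0.05, and edgeR and DESeq2 each called 0. The response was lower in Thrb-KO for 2 by limma, Neurod4 (-1.12) and Neurod1 (-0.69), and edgeR and DESeq2 called these and Gli2. Neurod1 did not pass with T3 in wild type (0.2, limma adjusted p = 0.238). In Thrb-KO it fell by less than 1.5-fold (-0.49, limma adjusted p = 0.00599). Six3, a relative of Six6, had a T3 difference of 0.52 in wild type (adjusted p = 0.00218), under 1.5-fold. Between genotypes, Neurod1 was higher in hypothyroid Thrb-KO (1.02), and in hyperthyroid Thrb-KO Gli2 (-0.85) and Neurod4 (-0.70) were lower and Nr5a1, a gonadotroph factor, was higher (0.60), the last by limma alone and not by edgeR or DESeq2.

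Of 18 cofactors of the members, all tested, 0 were called by limma with T3 in either genotype or in the interaction. At an unadjusted p under 0.05 there were 9 with T3 in wild type, 4 in Thrb-KO and 4 in the interaction. The other tools differed here. With T3 in wild type edgeR called 4 (Dach2, Eya2, Lmo1 and Zfpm2) and DESeq2 the first 3 of these, both called 0 in Thrb-KO, and both called Dach2 in the interaction. In the limma fit of wild type Zfpm2, a binding partner of GATA proteins, differed by -0.57 (adjusted p = 0.000276), and Lmo1 and Lmo3, LIM-only proteins that share partners with Lhx3 and Isl1, by 0.55 and -0.50 (adjusted p = 0.00612 and 0.00123), each under 1.5-fold. Dach2, a partner of Six6 and its relatives, was the only 1 called by limma between genotypes and was higher in hypothyroid Thrb-KO (0.64, adjusted p = 0.00891).

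Of 10 hormone and receptor genes that the members are known to control, 9 were tested. In wild type Gh and Prl rose with T3 and Tshb, Cga and Trhr fell, and in Thrb-KO Prl rose and Tshb, Cga and Trhr fell. Cga, the common subunit of thyrotropin and the gonadotropins, went from a mean of 8118 ± 2373 to 1355 ± 213 CPM in wild type and from 5999 ± 599 to 1380.3 ± 61.9 CPM in Thrb-KO (SD). Trhr, the receptor for thyrotropin-releasing hormone, was the only 1 of the 9 with an interaction and genotype differences called by limma, and edgeR called the same. DESeq2 also called Prl lower in hyperthyroid Thrb-KO than in wild type. The gonadotropin genes Lhb and Fshb and the receptor Gnrhr were not called by any of the 3 tools in any of the 5 contrasts.

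Markers of the cell types that the pools can hold were summed in each library, and 0 markers of any list were at 0 CPM in all libraries. Their part in the values of the lineage factors was not tested. Thyrotroph markers (3 genes, Tshb the most abundant, all 3 lower with T3 in both genotypes) summed to 4198, 3941, 7701 and 6953 CPM in hypothyroid and to 112, 82.2, 462 and 314 CPM in hyperthyroid wild type. In Thrb-KO they summed to 4062, 4000.1, 4197, 5110.2 and 5480 CPM without T3 and to 327, 298, 302, 348 and 291 CPM with T3, so the sum was low in hyperthyroid libraries of either genotype. Of its genes, Dio2 and Trhr fell less with T3 in Thrb-KO than in wild type by all 3 tools (limma interaction 2.81 and 2.04), in the direction of the Gata2 interaction. Between genotypes all 3 tools called both lower in hypothyroid Thrb-KO (-0.63 and -1.35 by limma), the direction of Isl1, and higher in hyperthyroid Thrb-KO (2.18 and 0.69), the direction of Gata2 and Foxl2. Tshb did not share these differences and was called by none of the 3 tools. Its limma interaction was 0.13 (adjusted p = 0.995), and its genotype differences were -0.18 (hypothyroid, adjusted p = 0.895) and -0.05 (hyperthyroid, adjusted p = 0.959). Gonadotroph markers (4 genes, Fshb the most abundant, 0 called with T3 by limma, edgeR or DESeq2, with 0 in wild type and 1 in Thrb-KO at an unadjusted p under 0.05, and Nr5a1 called higher in hyperthyroid Thrb-KO than in wild type by limma alone) had mean sums of 1044 ± 54.0 and 1024 ± 48.6 CPM in wild type and 1137 ± 159 and 960.5 ± 43.7 CPM in Thrb-KO (SD, hypothyroid then hyperthyroid, as in the sums that follow).

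Somatotroph markers (3 genes, Gh the most abundant and the 1 called with T3 in wild type by limma, where edgeR and DESeq2 also called Gpr101) summed to 48447, 51131, 66339.5 and 57843 CPM in hypothyroid and to 104453, 87488, 159207 and 112265 CPM in hyperthyroid wild type. Lactotroph markers (3 genes, Prl the most abundant and the 1 called with T3 in both genotypes) summed to 6311, 5992, 8759.6 and 9463 CPM and to 15784, 14716, 53298 and 27063 CPM in the same groups. Replicate 3 of hyperthyroid wild type was the highest of the wild-type libraries in both lists. Among the factors tested, that library was the lowest of its group for Pou1f1, Pitx1, Lhx3, Foxl2 and Six6, and not for Gata2 or Isl1. CPM is a share of all reads, and the TMM factor of that library was 0.8616. Whether the hormone genes play a part in its values of these factors was not tested. In Thrb-KO the somatotroph markers summed to 57989, 57879, 73865, 70466 and 72618 CPM and to 95079.9, 89507, 83015, 88494 and 115096 CPM, and the lactotroph markers to 6069, 5323, 4947, 5404 and 4873 CPM and to 12210, 14269, 19049.9, 20604 and 16085 CPM. Between genotypes all 3 tools called Gpr101 higher in hypothyroid Thrb-KO and Angpt1 in both hormone states, and edgeR and DESeq2 called an interaction of Gpr101 where limma did not.

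Immune markers (4 genes, Csf1r the most abundant) were lower in every hypothyroid Thrb-KO library, at 46.5, 44.4, 40.3, 38.8 and 37.7 CPM, than in hypothyroid wild type, at 67.7, 68.0, 75.0 and 74.7 CPM. In the hyperthyroid groups they summed to 46.0, 39.0, 48.6, 43.1 and 45.5 CPM in Thrb-KO and to 47.0, 58.8, 55.2 and 78.2 CPM in wild type, and limma called C1qa lower in Thrb-KO in both states and Csf1r in the hypothyroid one. edgeR and DESeq2 each called all 4 markers lower in hypothyroid Thrb-KO, where all 4 had an unadjusted p under 0.05 by limma, and 2 (C1qa and Cd68) in the hyperthyroid state. The 2 genotypes thus did not overlap in this sum without T3 and overlapped with T3. Isl1, also lower in hypothyroid Thrb-KO, and Lhx3, which was higher there, did not overlap without T3 either, as was true of 14.3% of all genes tested. A link between them and the immune markers was not tested. Blood markers (3 genes, Hba-a1 the most abundant, 0 called by limma, edgeR or DESeq2 and 0 at an unadjusted p under 0.05 in any comparison) summed to 51.8, 55.5, 42.6 and 28.5 CPM in hypothyroid and to 67.8, 77.7, 65.7 and 74.9 CPM in hyperthyroid wild type, and to 61.6, 53.3, 24.4, 26.5 and 26.3 CPM and 62.4, 38.4, 80.8, 25.1 and 77.8 CPM in Thrb-KO.

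The remaining lists are given as means, and p is unadjusted where a limit of 0.05 is named. Corticotroph and melanotroph markers (5 genes, Pomc the most abundant, with Pcsk2 lower in hypothyroid Thrb-KO) had mean sums of 5693 ± 1879 and 5653 ± 2446 CPM in wild type and 3824 ± 650.4 and 3994 ± 1038 CPM in Thrb-KO. Stem cell and folliculostellate markers (5 genes, 4 tested, Aldh1a2 the most abundant and lower in hyperthyroid Thrb-KO) had 88.2 ± 4.24, 96.3 ± 8.16, 79.5 ± 5.44 and 74.9 ± 9.37 CPM in the 4 groups. Posterior lobe markers (4 genes, Col25a1 the most abundant, 0 called by limma in any comparison, 1 called by edgeR and by DESeq2 with T3 in wild type, where 2 had p under 0.05) had 41.5 ± 8.29, 48.0 ± 9.34, 51.3 ± 6.29 and 51.0 ± 2.26 CPM, a low level beside the hormone genes of the anterior lobe. Endothelial markers (7 genes, Plvap the most abundant, 0 called by limma, edgeR or DESeq2, with 1 at p under 0.05 for T3 in each genotype) had 256 ± 57.0, 225 ± 61.1, 234 ± 41.6 and 206 ± 34.8 CPM, and stromal markers (6 genes, Dcn the most abundant, with Col1a1 lower with T3 in wild type by all 3 tools and Col3a1 by limma alone) had 313 ± 72.5, 307 ± 77.4, 315 ± 35.9 and 286 ± 39.1 CPM.

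The loci of the 8 factors were then compared with the lists of chromatin sites, in mm9. TRβ sites came from mice whose Thrb gene carries a tag (HAB) that the BirA ligase, expressed from Rosa26, marks with biotin, so that streptavidin draws down the receptor with its DNA. The authors called them on 3 merged libraries of Thrb HAB/HAB;Rosa26BirA/BirA mice against 3 of BirA mice, each from pooled tissue, so the lists carry no replicate error, and the genotype field of the untreated BirA libraries repeats the HAB genotype. The third list holds 1776 sites whose accessibility by ATAC-seq differed between hyperthyroid and hypothyroid mice, without direction or size, in nuclei tagged by Sun1-GFP through a Cre driven by the b2 promoter of Thrb, so it covers only cells in which that promoter has been active. A site was assigned to a gene within 20 kb of its body.

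Of the 8 factors, 5 had a pituitary TRβ site within 20 kb (Pou1f1, Pitx1, Lhx3, Gata2 and Six6), against 30.5% of all 21695 genes placed and 41.3% of those tested. In cerebral cortex 0 of the 8 had one, against 26.0% of genes, and 0 had a T3-regulated ATAC site, against 5.95%. Among the 4 factors that changed with T3 in wild type, Six6, Lhx3 and Gata2 had a pituitary site in reach, while for Isl1 the nearest lay 598 kb away. Pou1f1 and Pitx1 had sites without a called T3 response, and for Lhx4 and Foxl2 the nearest lay 105 kb and 21.3 kb away.

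Pou1f1 (chr16:65520847-65535250, plus strand) carried 4 sites within 20 kb, all in the intergenic stretch before its start, the most of the 8 factors at that distance, while Lhx3 had more within 5 kb (2 against 1) and within 100 kb (12 against 5). The strongest by reads and by false discovery rate was chr16:65514651-65515050, at -6.0 kb from the gene start. It had 80 reads with the tag against 3 in the BirA control, a fold of 22.3 after the authors' scaling. Its false discovery rate of 4.51e-76 ranked it at 163 of 8051 sites by that rate. The others lay at -14.8 kb (39 against 5 reads, fold 6.51, rate 3.05e-19), at -10.17 kb (28 against 1, fold 23.4, rate 9.03e-29) and at -4.47 kb (24 against 2, fold 10.0, rate 9.9e-17). Farther out, and chosen after the values were seen, a pituitary site at chr16:65471851-65472150, -48.85 kb from the start, had 26 reads against 0. This distal site shared 217 bases with the T3-regulated ATAC site chr16:65471799-65472067, the only ATAC site of the list within 100 kb of any of the 8 factors.

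Lhx3 (chr2:26055732-26063769, minus strand) had 2 sites within 20 kb, both past its 3′ end, of which chr2:26052201-26052800 had 33 against 8 reads (fold 3.44, rate 1.85e-09) and was weak by fold, with 1.44% of the list below it. Gata2 (chr6:88143885-88157024, plus strand) had 1 site, chr6:88143501-88143800, whose centre lay -0.23 kb from the annotated start (14 against 2 reads, fold 5.84, rate 8.32e-08). Six6 (chr12:74040932-74045886, plus strand) had 1 site 1.01 kb past its 3′ end, chr12:74046901-74047150 (15 against 1 reads, fold 12.5, rate 9.9e-13), for which the start of 4930447C04Rik, at 5.21 kb, is nearer than that of Six6. In Pitx1 (chr13:55926415-55937553, minus strand) the site chr13:55932851-55933100 lay between exons, -0.19 kb from the second of its annotated starts. It had 17 against 0 reads (rate 4.72e-25), and its listed fold of 56.7 cannot be a plain ratio of these counts. The loci of Lhx4 (chr1:157548827-157589157), Isl1 (chr13:117088478-117099896) and Foxl2 (chr9:98856026-98858545) held none within 20 kb.

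**Figure D3:**
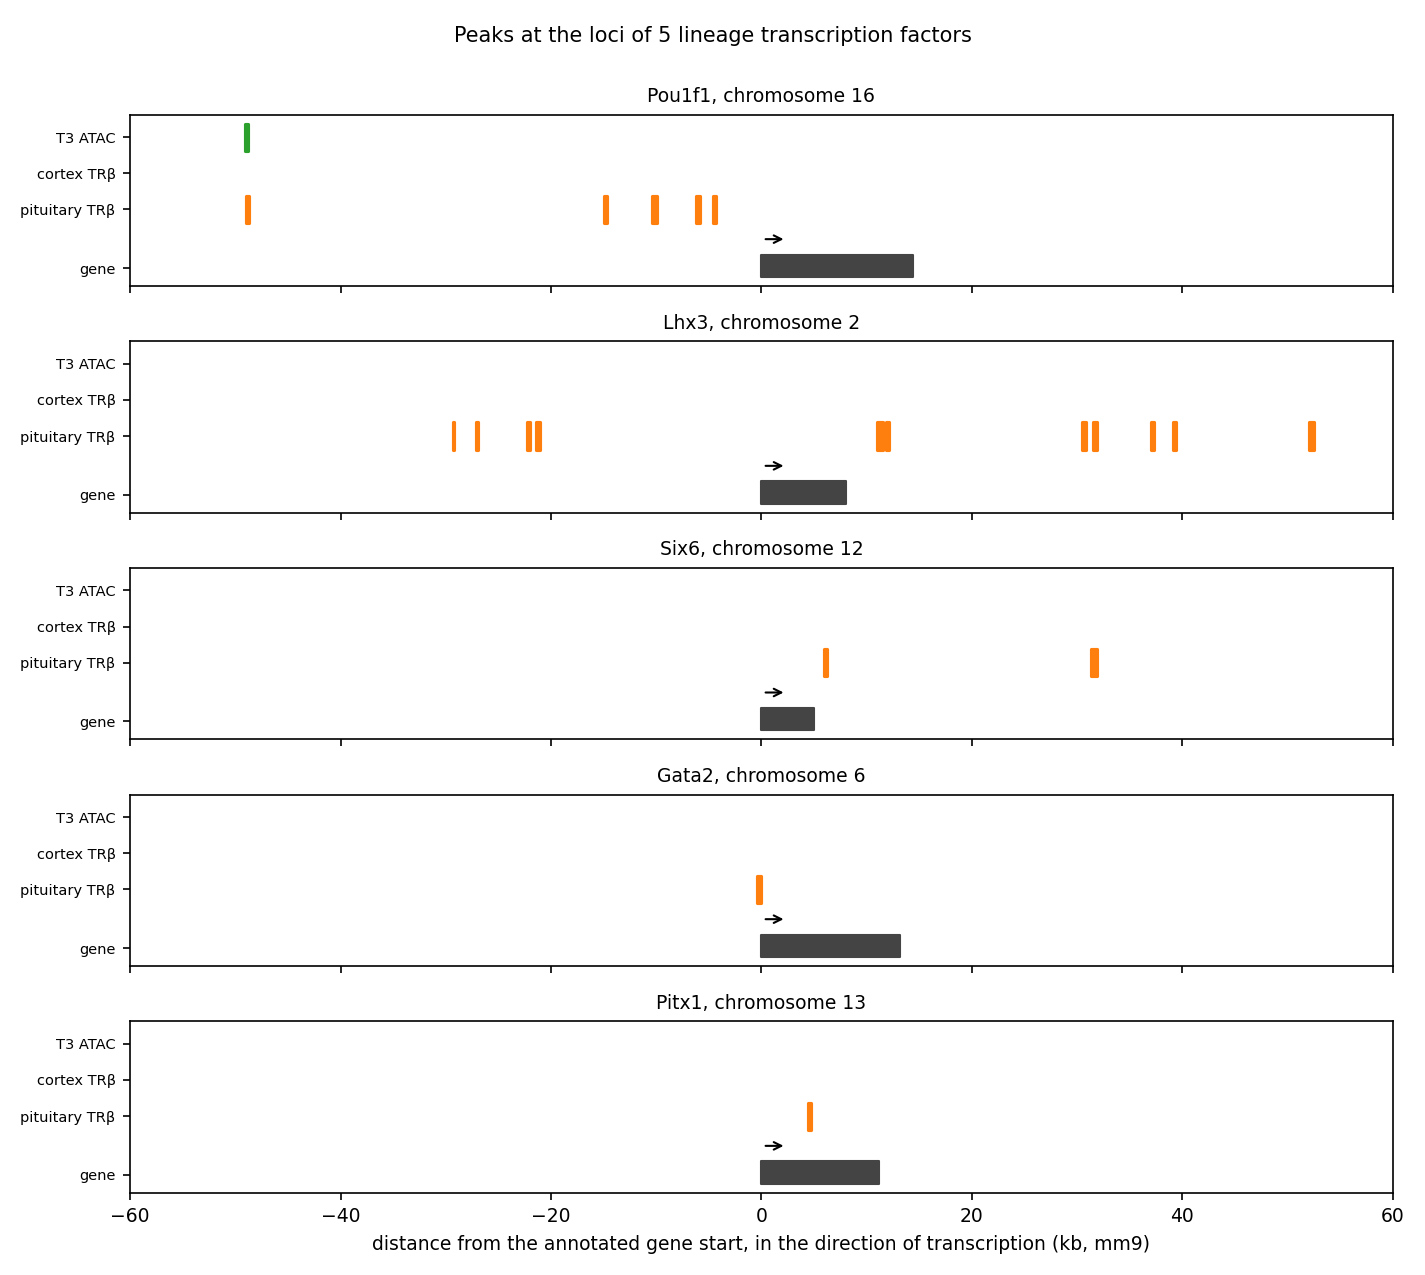
Sites of the pituitary TRβ, cortex TRβ and T3-regulated ATAC lists within 60 kb of the starts of Pou1f1, Lhx3, Six6, Gata2 and Pitx1, drawn to scale in mm9 along the direction of transcription. Grey bars are gene bodies and arrows mark the starts. Pou1f1 shows 4 pituitary sites from -14.8 to -4.47 kb and the distal one at -48.85 kb under the ATAC site.

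T3 receptors are known to bind pairs of the half-site AGGTCA in direct repeat with 4 bases between them (DR4). Both strands of every site were searched for 2 half-sites so placed, with at most 2 mismatches over the 12 bases. Such a match was held by 20.9% of all pituitary TRβ sites, 9.3% of cortex sites and 30.9% of ATAC sites, and by 4 of the 9 pituitary sites within 20 kb of the members. Of those, 3 are shown as examples of the receptor's letters at genes of the list, not chosen for the closeness of the match, namely the Gata2 site, the Lhx3 site of 600 bases and the Pou1f1 site at -10.17 kb, each with a match of 10 of 12 bases. The windows are chr6:88143501-88143800 for Gata2, chr2:26052651-26052800 for Lhx3 and chr16:65510687-65510836 for Pou1f1, all mm9, plus strand, with capitals for the half-sites. A match is a description of letters and was not tested for binding.
Gata2 site: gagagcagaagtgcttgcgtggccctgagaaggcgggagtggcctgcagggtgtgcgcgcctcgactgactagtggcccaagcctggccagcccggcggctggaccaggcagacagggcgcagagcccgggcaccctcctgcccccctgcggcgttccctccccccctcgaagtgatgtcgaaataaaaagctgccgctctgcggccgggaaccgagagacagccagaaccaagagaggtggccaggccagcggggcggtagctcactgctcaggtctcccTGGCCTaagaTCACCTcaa
Lhx3 site: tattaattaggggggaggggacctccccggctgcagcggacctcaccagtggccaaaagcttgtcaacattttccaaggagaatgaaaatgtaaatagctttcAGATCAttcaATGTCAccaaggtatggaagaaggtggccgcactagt
Pou1f1 site at -10.17 kb: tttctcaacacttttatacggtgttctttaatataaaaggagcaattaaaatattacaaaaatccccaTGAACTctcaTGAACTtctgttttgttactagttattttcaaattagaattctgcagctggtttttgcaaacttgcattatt

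Pou1f1 is known to bind AT-rich sequences and to act on its own gene, and after the sites had been listed they were searched on both strands for TATNCAT, a form of its target. It was found in 4 of the 5 pituitary sites at the Pou1f1 locus, those at -48.85, -14.8, -10.17 and -4.47 kb, and in 13.3% of all pituitary TRβ sites. The sites at Pou1f1 were AT-rich, with a GC content from 32.7% to 45.2% against a median of 51.2% over all pituitary sites, and AT-rich sequence holds these letters more often whatever binds it. Of the 5 pituitary sites within 20 kb of the other members, 1 held TATNCAT, the Lhx3 site of 600 bases. The Pitx-type letters TAATCC were in 12.0% of all pituitary sites, and the Pou1f1 site at -14.8 kb is given as 1 example near a member. The windows of 80 bases below are chr16:65471882-65471961, chr16:65505973-65506052, chr16:65510590-65510669 and chr16:65516317-65516396, mm9, plus strand, with capitals for TATNCAT or its reverse complement.
Pou1f1 site at -48.85 kb: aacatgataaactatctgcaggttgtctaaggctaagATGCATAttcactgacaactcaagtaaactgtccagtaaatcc
Pou1f1 site at -14.8 kb: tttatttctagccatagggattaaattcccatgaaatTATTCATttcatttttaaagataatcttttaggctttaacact
Pou1f1 site at -10.17 kb: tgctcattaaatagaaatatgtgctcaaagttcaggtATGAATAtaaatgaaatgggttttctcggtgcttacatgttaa
Pou1f1 site at -4.47 kb: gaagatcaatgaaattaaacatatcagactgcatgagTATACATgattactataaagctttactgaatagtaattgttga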

How the data were processed

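The members and gene lists were chosen with earlier results of these data known. The RNA table holds CPM that the authors computed per RefSeq transcript from reads mapped to mm9, each library a pool of 3 pituitaries. Whole reads were recovered from the step between low values (100% of values whole within 0.1 read) and used as counts in edgeR and DESeq2 alone. The deposited TRβ lists give the counts of reads, the fold (ratio) of tagged over control reads scaled by the authors, and the p-value and false discovery rate of SICER 1.1 at a limit of 1e-6. For sites without control reads the lists also give a fold, which cannot be a plain ratio of the counts. The deposited ATAC list gives an adjusted p-value of the authors' own comparison, which is not printed. The submitters' processing notes also name Bowtie2, STAR, MACS2 and edgeR.

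The main test was limma 3.58.1 (R 4.3.3) on log2(CPM + 1), 1 transcript per gene, CPM above 1 in all 18 libraries, with 4 groups in 1 model and a trend, Benjamini-Hochberg adjustment over 13145 genes, and calls at adjusted p under 0.05 and 1.5-fold. It was tested on simulated data with the same spread setting for all genes and without library sets. That run therefore cannot show how the test handles the library sets seen here. Over all genes, edgeR 4.0.16 called 1393 with T3 in wild type and DESeq2 1.42.0 called 1439, against 1244. All members, Thrb, Thra, the genes of the lists, and for each called member its 3 most similar genes may be named. Some items withheld from this text are not reported here. Distances use GENCODE vM1 gene bodies and the NCBIM37 genome. Alternatives were other pseudocounts (0.5, 0.1), filters, scalings, tests, library sets, blocks, windows and peak limits, and leaving out each library.

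Replicate numbers were checked as pairs. The deviations of same-numbered libraries from their group means correlated in all 25 pairs (Pearson r from 0.13 to 0.815, median 0.529), all above 0.1. Libraries of the same set with other numbers did so too (36 pairs, median 0.521), and libraries of different sets did not (60 pairs, median -0.548). These correlations thus cannot tell a pairing by number from the library sets. The labels do not name pairs, and only 5 of the 18 libraries were closest to one with their own number. The main test used no pairing, and the replicate number entered as a block in an alternative fit alone.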

Additional observations from a re-analysis of the deposited data

Results flagged for a closer look

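The T3 response of Gata2 differed between genotypes by the test of the difference itself. Its interaction, the response in Thrb-KO minus that in wild type, was 0.56 on the log2 scale (limma, BH-adjusted p = 0.0138, n = 4, 4, 5 and 5 pools), from a wild-type response of -0.64 and a Thrb-KO response of -0.08. The value was under 1.5-fold, so it is no call under both limits. Within library sets it was 0.52 in replicates 1 and 2 (adjusted p = 0.0268) and 0.56 in replicates 3 to 5 (adjusted p = 0.116, not passed). No library of the 8 members, Thrb or Thra was flagged as standing apart from its group in the 40 groups looked at. The widest gap for Thrb in hyperthyroid wild type was at replicate 3, with 72.4 CPM against 103 to 124 CPM in the rest of that group.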

How the results depend on the processing

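With T3 in wild type, Six6 and Isl1 passed under every alternative, from 0.81 to 0.91 and from -0.82 to -0.67, and over the runs that left out 1 library from 0.78 to 0.88 and from -0.86 to -0.67. The count of members called there was 4. It was 3 with edgeR and with DESeq2 (without Gata2), 5 without a fold limit (with Foxl2) and 2 with replicates 3 to 5 alone (Isl1 and Six6), where fewer libraries enter. Without a fold limit the members called were 1 with T3 in Thrb-KO (Six6), 1 in the interaction (Gata2), 3 between hypothyroid genotypes and 3 between hyperthyroid ones. Replicates 1 and 2 alone gave 1 in the interaction and 1 between hypothyroid genotypes (Lhx3 in both) and 0 between hyperthyroid ones, and replicates 3 to 5 alone gave 1 between hypothyroid genotypes (Isl1). TMM scaling, edgeR and DESeq2 each gave 0 between hyperthyroid genotypes. The cause of these moves was not tested beyond what a dropped limit or fewer libraries does by construction.

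Leaving out 1 library gave 3 to 4 members called with T3 in wild type, 0 to 0 with T3 in Thrb-KO, 0 to 1 in the interaction, 0 to 1 between hypothyroid and 0 to 1 between hyperthyroid genotypes. With the replicate number as a block, the counts were 4, 0, 0, 0 and 1, and the block changed no call of a member.

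Of all genes called, 40.9% rose with T3 in wild type, against 51.5% with edgeR and 52.5% with DESeq2. Of those with an interaction 58.2% were positive, against 48.0% and 47.5%, and between hyperthyroid genotypes 52.3% were higher, against 41.5% with TMM, 36.4% and 33.6%. Genome-wide counts moved by over 1.5 times without a fold limit (2536, 235, 901 and 1586 with T3 in wild type, with T3 in Thrb-KO and between hypothyroid and hyperthyroid genotypes), with replicates 1 and 2 alone (214 with T3 in Thrb-KO) and with replicates 3 to 5 alone (635 and 1125 between hypothyroid and hyperthyroid genotypes).

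Members with a pituitary TRβ site were 5, and 2 at a false discovery rate of at most 1e-20 (Pou1f1 and Pitx1). Within 100 kb, 3 had a cortex site and 1 (Pou1f1) an ATAC site. Sites with a DR4 match were 4, 1 at no more than 1 mismatch and 6 at 3. Lhx4 stayed out of the main test because it was not above 1 CPM in all 18 libraries.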

Other observations

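Lhx4 moved with the library sets and not with the groups. Its mean was 1.06 CPM over the 8 libraries of replicates 1 and 2, from 0.779 to 1.23, and 0.579 CPM over the 10 libraries of replicates 3 to 5, from 0.446 to 0.792.

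Some members varied together among pools of one group and set, and others did not. Over the 18 libraries, after each group's mean within its set was subtracted, Gata2 and Foxl2 correlated at r = 0.834, Pitx1 and Foxl2 at 0.826, Pitx1 and Lhx3 at 0.755 and Pitx1 and Gata2 at 0.75, as a description of values that share their libraries. Isl1 and Six6, which moved in opposite directions with T3, had r = 0.122 on that scale, Foxl2 and Six6 0.004, Pou1f1 and Gata2 0.044 and Gata2 and Six6 -0.053. The scale was CPM without rescaling. Hyperthyroid wild-type replicate 3 (TMM factor 0.8616) was below replicate 4 for Gata2 (44.6 against 59.5 CPM), Foxl2 (12.6 against 19.2), Pitx1 (107 against 149) and Lhx3 (89.3 against 135). It was also below for Pou1f1, Isl1 and Six6. The part of that library in the correlations was not tested, and no background over other gene pairs is given.

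With the mean of each set subtracted, the 3 genes of 13144 most similar in log2(CPM + 1) over the 18 libraries were Uck2 (r = 0.98), Apobec1 (0.976) and H2afy (0.972) for Six6, and P4htm (0.972), Lmna (0.959) and Rhpn1 (0.958) for Gata2. For Isl1 they were Dkk3, Rcn1 and Odz2, each at 0.958, for Lhx3 Ptges (0.935), Gnaz (0.931) and Tmco6 (0.93), and for Pou1f1 Ddx26b (0.914), Sqle (0.909) and Dclk2 (0.899). These values rest in part on the group differences that the members were called for.

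Thra, the other T3 receptor gene, had means of 76.4 ± 9.68 and 55.8 ± 6.39 CPM in hypothyroid and hyperthyroid wild type and 87.1 ± 5.35 and 79.7 ± 5.26 CPM in Thrb-KO (SD). Its T3 difference was -0.44 in wild type (limma adjusted p = 0.00305) and -0.13 in Thrb-KO (adjusted p = 1.0), both under 1.5-fold, and the difference between them did not pass (0.32, adjusted p = 0.234). Between genotypes Thra was higher in hyperthyroid Thrb-KO by 0.51 (adjusted p = 0.00105), under 1.5-fold and without overlap of the groups, and the hypothyroid difference of 0.19 did not pass (adjusted p = 0.286).

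The wider surroundings of Lhx3 held 12 pituitary TRβ sites within 100 kb of the gene, which were looked at after the sites near it had been seen. The one with the most reads, chr2:26127901-26128400, at -64.38 kb from the start, had 100 reads with the tag against 9 in the control (fold 9.27) and lies in 4932418E24Rik. Sites at -22.16 and -21.23 kb, in Qsox2, had 19 against 0 and 26 against 1 reads. Six6 had a second pituitary site beyond 20 kb, chr12:74072251-74072800, 26.36 kb from the gene, with 81 against 8 reads (fold 8.45).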
